A study of Mus musculus with 6 samples.

Results

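Cell junction genes were examined in the colorectum of colitis mice receiving berberine (BBR) or sulfasalazine (SASP), a drug used against ulcerative colitis. Membership went by gene symbol alone, but the set itself was chosen with earlier results of these data known. The set holds the claudins, zonula occludens proteins (among them Tjp1 and Tjp3), occludin and the related MARVEL proteins (Ocln, Marveld2, Marveld3), the junctional adhesion molecules (F11r, Jam2, Jam3), cingulin and its paralog (Cgn, Cgnl1), the desmosomal cadherins and plaque proteins (Dsg, Dsc, Dsp, Jup, Pkp) and the adhesion molecules Cdh1, Cdh17 and Epcam. Of 18268 genes listed, 48 belonged to the set, and 32 of these reached 1 FPKM in at least 3 of the 6 mice and were tested among 12072 genes. FPKM is a read level scaled by transcript length and by library size, so levels of different genes can be set side by side.

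All mice were C57BL/6, adult and male according to the methods of the study, and all had colitis induced with dextran sulfate sodium (DSS), which damages the lining of the colon when it is drunk, over 7 days. From each group, 3 mice were sequenced. One group was gavaged with BBR, a plant alkaloid, for 6 days and the other with SASP for the same 6 days. Untreated mice and colitis mice without a drug were not analysed here, so each value below compares one drug with the other and not with colitis alone. The labels do not say whether the mice shared a cage or a litter, and p-values measure the spread between these 6 samples.

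Epithelial cells of the gut are held together by a belt of junctions near the lumen. Tight junctions, the uppermost, are built from claudins, which polymerise into strands that either seal the space between cells or form charge-selective pores, and from occludin, MARVEL proteins and junctional adhesion molecules. Zonula occludens proteins and cingulins tie these strands to actin. Adherens junctions rest on E-cadherin (Cdh1), and desmosomes, in which desmogleins and desmocollins join keratin filaments through plakophilins, plakoglobin (Jup) and desmoplakin (Dsp), give the sheet mechanical strength.

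Sequences upstream of 4 claudin genes on which the results turn are shown first. Cldn2 and Cldn15 are the pore-forming claudins that were tested, Cldn4 is a sealing claudin that lay close to the threshold and Cldn5 is the claudin that passed the test. Each window runs from 250 bases before to 50 bases after the start of the gene in RefSeq (build GRCm38.p6) and is printed 5′ to 3′ on the strand of the gene. Capitals mark TTTAT, the core letters bound by caudal-type homeobox factors such as Cdx2, which reads as ATAAA when it lies on the opposite strand. They also mark CAGGTG, an E-box bound by Snail and Zeb factors, which then reads as CACCTG. The windows lie at chrX:139800558-139800857 on the plus strand for Cldn2, chr5:136967619-136967918 on the plus strand for Cldn15, chr5:134946885-134947184 on the minus strand for Cldn4 and chr16:18776597-18776896 on the plus strand for Cldn5.
Cldn2: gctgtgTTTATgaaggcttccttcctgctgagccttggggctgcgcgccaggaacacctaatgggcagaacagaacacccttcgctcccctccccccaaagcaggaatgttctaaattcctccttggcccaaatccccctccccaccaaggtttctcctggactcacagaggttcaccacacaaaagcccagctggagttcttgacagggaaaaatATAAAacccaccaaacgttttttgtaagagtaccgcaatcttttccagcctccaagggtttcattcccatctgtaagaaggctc
Cldn15: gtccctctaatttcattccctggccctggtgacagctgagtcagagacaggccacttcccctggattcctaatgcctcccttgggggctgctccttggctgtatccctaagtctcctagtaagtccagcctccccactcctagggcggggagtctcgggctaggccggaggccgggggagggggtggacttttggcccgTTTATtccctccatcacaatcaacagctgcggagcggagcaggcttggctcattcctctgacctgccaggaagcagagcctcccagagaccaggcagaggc
Cldn4: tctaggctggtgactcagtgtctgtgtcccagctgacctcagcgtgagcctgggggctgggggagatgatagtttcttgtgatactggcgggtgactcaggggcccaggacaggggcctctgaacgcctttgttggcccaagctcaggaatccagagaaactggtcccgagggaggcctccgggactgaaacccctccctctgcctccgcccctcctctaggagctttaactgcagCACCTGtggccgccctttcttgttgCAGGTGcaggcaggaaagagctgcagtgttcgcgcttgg
Cldn5: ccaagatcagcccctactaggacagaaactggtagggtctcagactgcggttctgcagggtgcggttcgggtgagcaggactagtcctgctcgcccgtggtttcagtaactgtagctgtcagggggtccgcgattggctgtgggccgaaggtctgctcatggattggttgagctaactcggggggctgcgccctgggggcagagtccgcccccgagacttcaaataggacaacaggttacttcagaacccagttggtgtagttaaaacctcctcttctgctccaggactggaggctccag

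The Cldn2 window held the letters of the caudal-type core at positions -244 and -34 from the start site, and the Cldn15 window held them at -51. The stretch at -34 in Cldn2 reads tATAAAa, which are also the letters of a TATA box. The Cldn4 window held the E-box at -14 and at 12, and the Cldn5 window held neither set of letters. Of the 48 genes, 28 matched a window. Among the 19 tested junction genes with a window, 8 (42.1%) had the caudal-type core, against 30.1% of 9616 tested genes and 43.8% of all 27025 genes with a window. Counted by window, the core stood in 32.1% of the 28 windows of these 19 genes and in 40.0% of all 32851 windows. The E-box stood in 11 of the 19 (57.9%: Epcam, Dsp, Pkp4, F11r, Ocln, Marveld2, Cldn7, Cldn3, Cldn4, Cldn14 and Tjp3), against 21.1% of tested genes and 22.6% of all genes, and by window in 14 of 28 against 20.2% of all windows. Genes with several start sites have more than 1 window, and these shares are descriptions of letters, not of binding.

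The 6 libraries were of like size. Genes seen in only 1 library, each taken as 1 read, put the depth at an estimated 16400000 to 18200000 reads. At that depth, 1 read on a transcript of 1 kb is worth 0.055 to 0.061 FPKM. Between 11518 and 12307 genes reached 1 FPKM, and the junction set took 0.711% to 0.845% of the summed FPKM. BBR mouse 3 stood apart from BBR mice 1 and 2 (r of 0.953 and 0.949 across tested genes, against 0.987 between those mice), and it had the highest sums of smooth muscle and goblet cell markers. Results are therefore given with and without it. The labelled tissue carried its epithelial markers, with Krt8 between 1852 and 2147 FPKM. Of the basal markers of anal squamous epithelium, Krt5 was at no more than 0.25 and Trp63 at no more than 0.06 FPKM in any mouse. Krt14 was at 1.73 FPKM in BBR mouse 3 and at 0.12 to 0.48 FPKM in the other mice. Krt5 and Krt15 (0.49 FPKM) were also highest in BBR mouse 3, whereas Trp63 was at 0 there.

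Junction genes passed the test between the 2 drugs about as seldom as tested genes at large. With all mice, limma on log2(FPKM + 1) called 2 of the 32 tested junction genes at an adjusted p under 0.05 (6.25%). Among all 12072 tested genes it called 1069, or 8.86%, of which 461 were higher and 608 lower under BBR (82 and 785 when epithelial markers served as the reference). The share of junction genes was thus near that of all genes. Cldn5 was higher under BBR and Dsc2 was lower. The median log2 fold change of the 32 genes was 0.03, with 17 above 0 and 15 below, beside a median of 0.10 over all tested genes, but was -0.06 with median-ratio scaling and -0.23 with epithelial markers as the reference. That reference is the mean log2 level of 14 epithelial markers and was moved most by Car1. Car1 ranged from 71.76 to 2345.09 FPKM and had a log2 fold change of 2.48. The median over the 14 markers was 0.12, and 3 of them lay below 0. Of the 32 genes, 18 had a fold change smaller than 0.3 on the log2 scale in either direction. In bulk tissue, fewer cells of a type and less RNA per cell cannot be told apart.

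**Figure D1:**
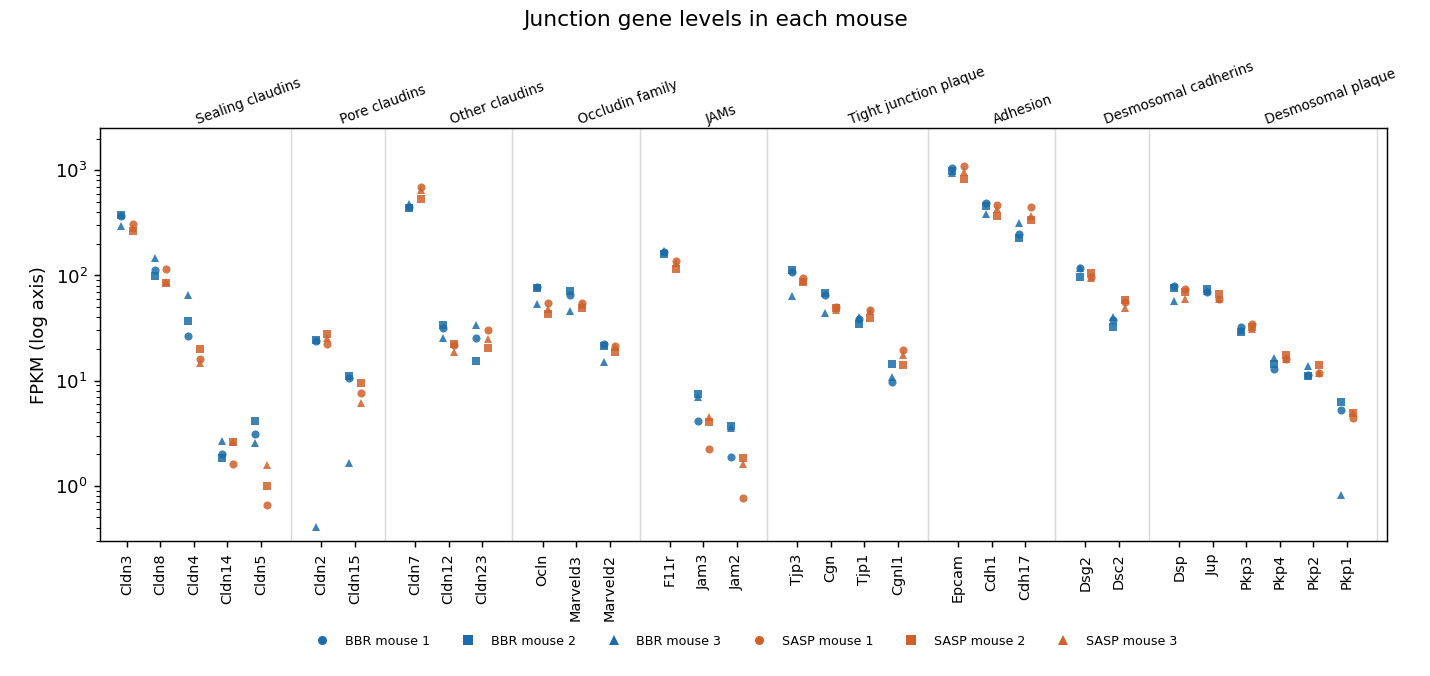
Level of 31 of the 32 tested junction genes in each of the 6 mice, in FPKM on a log axis, grouped by role (blue, BBR; orange, SASP; symbols mark mouse 1, 2 and 3). Levels span from Epcam at 833 to 1101 FPKM to Cldn5, Jam2 and Cldn14 below 5 FPKM, and BBR mouse 3 lies far below the other mice for Cldn2, Cldn15 and Pkp1.

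Without BBR mouse 3, the same fit called 12 of the 32 (37.5%), beside 33.8% of 11878 tested genes, again a share close to the background. Of these, 9 were higher under BBR (Cldn3, Cldn4, Cldn5, Cldn12, Ocln, Marveld3, F11r, Cgn and Tjp3) and 3 were lower (Cldn7, Cdh17 and Dsc2). Over all tested genes this fit also called more genes higher (2649) than lower (1369). Leaving out any other single mouse called 0 of the 32 in either direction, and 51 to 405 of all tested genes. The BBR and SASP groups did not overlap for 10 of the 32 genes (31.2%), against 37.9% of all tested genes. All BBR mice lay above all SASP mice for Jup, F11r, Jam2, Cldn12, Cldn4 and Cldn5, and below them for others, among them Cdh17, Dsc2 and Cldn7. At an unadjusted p of at most 0.05, 12 of 32 passed, beside 31.8% of all tested genes.

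**Figure D2:**
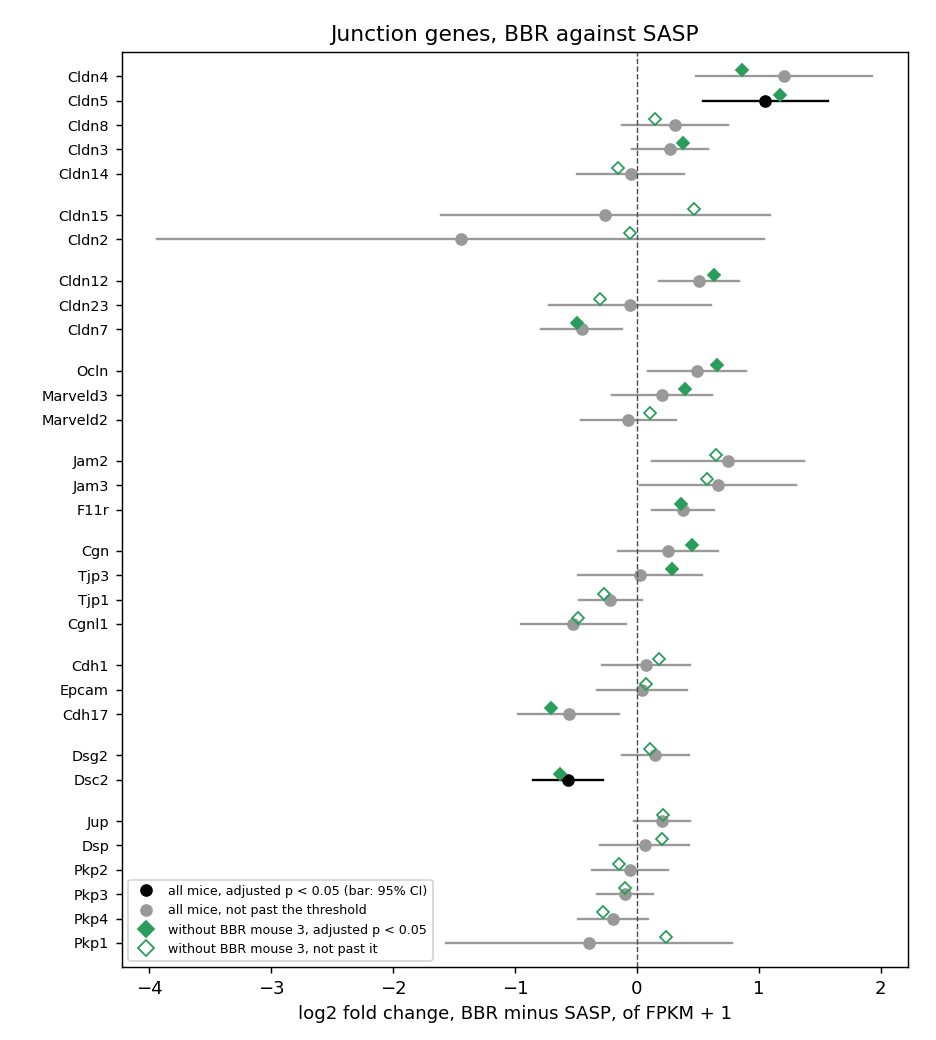
Log2 fold change (BBR minus SASP, of FPKM + 1) of 31 of the 32 tested junction genes, grouped by role. Circles with bars give the value and 95% confidence interval with all 6 mice (black, adjusted p under 0.05), and diamonds give the value without BBR mouse 3 (filled, adjusted p under 0.05). Cldn5 and Dsc2 are the black circles, and the bars of Cldn2, Cldn15 and Pkp1 are the widest.

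Sealing claudins tighten the junction against ions. Of this group 5 members were tested, and 1 of them, Cldn5, passed. Cldn3, the most abundant, was at 364.67, 374.23 and 298.44 FPKM in BBR mice 1 to 3 and at 307.00, 264.53 and 283.81 FPKM in SASP mice 1 to 3. BBR mouse 3 lay inside the SASP range. Its log2 fold change was 0.27 (SE 0.13, limma adjusted p = 0.202), and 0.38 (adjusted p = 0.0286) without BBR mouse 3. Cldn8, a claudin of the distal colon that limits sodium leak, gave 0.31 and overlapped between groups, and Cldn14, at 1.62 to 2.64 FPKM, gave -0.05.

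Cldn4, a sealing claudin of surface colonocytes, lay just outside the threshold. It had the highest log2 fold change of the set with all mice and a pseudocount of 1, whereas Cldn5 was higher under some alternatives, among them pseudocounts of 0.1 and 0.01 and leaving out BBR mouse 3. Its level was 26.82, 36.74 and 65.36 FPKM in the BBR mice and 16.19, 20.02 and 14.67 FPKM in the SASP mice. Every BBR mouse was above every SASP mouse, with BBR mouse 3 far above the rest. Cldn4 gave a log2 fold difference of 1.21 (SE 0.31, limma adjusted p = 0.0556), and 0.86 (adjusted p = 0.0160) without BBR mouse 3. With the smooth muscle covariate it was 0.61 (adjusted p = 0.425). The groups did not overlap on that covariate, so this fit cannot tell smooth muscle level and drug apart. Cldn4 and Cldn3 are neighbours on chromosome 5. The ratio of Cldn4 to Cldn3 within a mouse was 0.0735 to 0.219 under BBR and 0.0517 to 0.0757 under SASP, and the groups overlapped (exact permutation p = 0.20, two-sided).

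Cldn5, the claudin best known from the endothelium of blood vessels, was among the least abundant of the tested genes. It stood at 3.14, 4.15 and 2.58 FPKM in the BBR mice and at 0.66, 0.99 and 1.59 FPKM in the SASP mice. The groups did not overlap. The log2 fold change was 1.05 (SE 0.22, limma adjusted p = 0.0354), and 1.17 (adjusted p = 0.0132) without BBR mouse 3. The call was lost when any one of the other 5 mice was left out (adjusted p = 0.080 to 0.134), without a filter, with the epithelial reference and when smooth muscle level was added to the model (adjusted p = 0.256, the highest of all alternatives). The log2 fold change was 0.96 with that covariate and 0.90 to 1.22 with a mouse left out. The limit of the covariate fit given for Cldn4 holds here too.

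Endothelial markers had higher levels alongside Cldn5. Their summed level was 23.96 to 41.26 FPKM under BBR and 12.65 to 17.71 FPKM under SASP, and 8 of 8 tested markers had a log2 fold change above 0, with a median of 0.55. Of these, 1 passed the test, Emcn (endomucin, a sialomucin of capillaries and veins), at 0.83 (adjusted p = 0.0351). Pecam1, the platelet endothelial adhesion molecule, was at 7.71, 14.22 and 6.26 FPKM under BBR and 3.32, 4.2 and 4.88 FPKM under SASP. Cldn5 as a share of the summed marker level was 12.5%, 10.1% and 10.8% in the BBR mice and 5.22%, 5.92% and 8.98% in the SASP mice, so the groups also lay apart on this measure (11.1% ± 1.27 against 6.7% ± 2.0, SD, n = 3 each, exact permutation p = 0.10, two-sided, the smallest p that 3 mice against 3 allow). The separation held for the summed markers but not for Emcn alone. Cldn5 was above Emcn in SASP mouse 3 (1.59 against 1.36 FPKM). It was below Emcn in BBR mouse 1 (3.14 against 3.23 FPKM) and BBR mouse 3 (2.58 against 3.16 FPKM). The part of the endothelial markers in the Cldn5 result was not tested further.

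Of 4 pore-forming claudins 2 were tested, and both were far lower in a single mouse. Neither passed the test. Cldn2, which forms a channel for sodium and water, was at 23.86, 24.30 and 0.41 FPKM in the BBR mice and at 22.51, 27.90 and 25.23 FPKM in the SASP mice. BBR mouse 3 was 58.7-fold below the mean of the other BBR mice, and the remaining 5 mice were close together. The log2 fold change was -1.44 (SE 1.05, limma adjusted p = 0.369) with all mice and -0.06 (adjusted p = 0.679) without BBR mouse 3. Cldn15, also a cation channel, was at 10.71, 11.16 and 1.64 FPKM under BBR and at 7.66, 9.45 and 6.12 FPKM under SASP. BBR mouse 3 was again the lowest, 6.67-fold below the other BBR mice. The log2 fold change of Cldn15 was -0.26 with all mice and 0.47 without that mouse, and neither passed the test.

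Pkp1, a plakophilin best known from stratified epithelia, followed the same pattern, with 5.29, 6.32 and 0.81 FPKM under BBR and 4.4, 4.96 and 4.87 FPKM under SASP, which put BBR mouse 3 at 7.17-fold below the other BBR mice. Markers of squamous epithelium summed to 3.94 to 5.35 FPKM under BBR and 5.38 to 9.56 FPKM under SASP. Of the 12 genes 2 were above the filter, and 1 of these, Ly6d, was lower under BBR (log2 fold change -1.60, limma adjusted p = 0.0458). Without Ly6d the sums were 3.36, 3.68 and 5.19 FPKM under BBR and 2.8, 2.96 and 3.82 FPKM under SASP, so the direction of the sum rested on that gene. Cldn2, Cldn15 and Pkp1 were the 3 of 32 junction genes that were over 2-fold lower in BBR mouse 3 than the mean of BBR mice 1 and 2, and Cldn4, at 2.06 times that mean, was the only one over 2-fold higher. Over all tested genes, 854 (7.07%) were that much lower and 404 (3.35%) that much higher. The counts of 3 and 1 among the 32 junction genes were thus near the shares of all tested genes. The smooth muscle marker sum of this mouse was 6808 FPKM, against 2888 and 3046 FPKM in the other BBR mice, and its goblet marker sum was 23594 FPKM against 13418 and 11674 FPKM. The part of tissue makeup or of the site sampled in these levels was not tested.

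**Figure D3:**
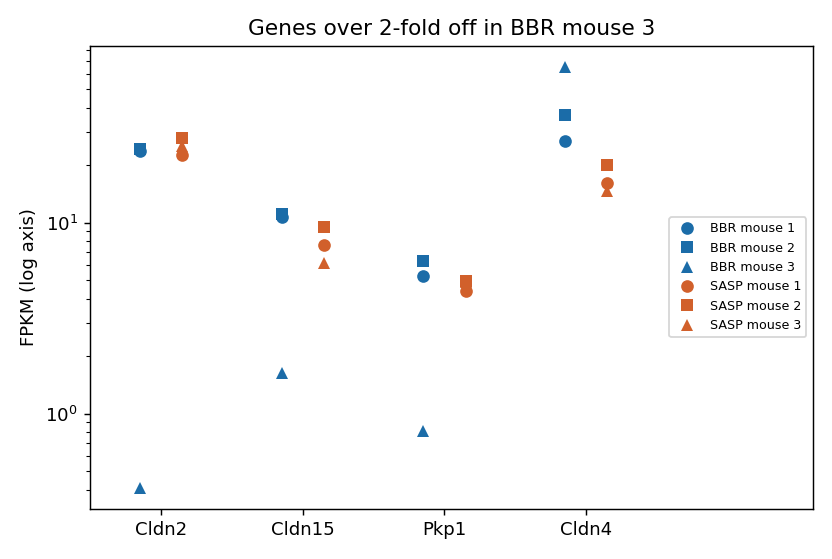
FPKM (log axis) of the 4 junction genes that differed by more than 2-fold between BBR mouse 3 and the mean of BBR mice 1 and 2 (blue, BBR; orange, SASP; symbols mark the mouse). Cldn2, Cldn15 and Pkp1 of BBR mouse 3 lie below every other mouse, at 0.41, 1.64 and 0.81 FPKM, and its Cldn4 lies above every other mouse, at 65.36 FPKM.

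Cldn7, a claudin of the basolateral membrane that binds Epcam, was the most abundant claudin in every mouse. It was at 442.92, 436.16 and 479.06 FPKM in the BBR mice and at 691.12, 532.96 and 642.93 FPKM in the SASP mice. All BBR mice lay below all SASP mice. For Cldn7 the log2 fold change was -0.45 (SE 0.14, limma adjusted p = 0.0831), and -0.49 (adjusted p = 0.0324) without BBR mouse 3. Cldn12, a claudin linked to calcium permeability, was at 31.77, 33.92 and 25.28 FPKM under BBR and 21.60, 22.24 and 18.80 FPKM under SASP. Its groups did not overlap either, and the log2 fold change of 0.51 (adjusted p = 0.0628) became 0.63 (adjusted p = 0.0079) without BBR mouse 3. With any other mouse left out, Cldn12 did not pass (limma adjusted p = 0.113 to 0.201). With the epithelial reference its log2 fold change was 0.24 (adjusted p = 0.588). Cldn23, a claudin of differentiated colonocytes, overlapped between groups at 15.50 to 33.88 FPKM.

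The claudins summed to a like level under both drugs, 1039 to 1059 FPKM under BBR and 989 to 1215 FPKM under SASP (no test was made of the sum). Cldn7 made up 42.4%, 42.0% and 45.2% of the claudin sum in the BBR mice and 56.9%, 53.9% and 58.0% in the SASP mice. Cldn3 made up 34.9%, 36.0% and 28.2% under BBR and 25.3%, 26.7% and 25.6% under SASP. The ratio of Cldn7 to Cldn3 was 1.33 ± 0.241 under BBR and 2.18 ± 0.141 under SASP (SD, n = 3 each, exact permutation p = 0.10, two-sided, the smallest possible), with no overlap. Ratios within a mouse do not depend on the scaling between mice. They were chosen after the levels were seen, 6 were computed, and their Benjamini-Hochberg adjusted p was 0.12 for the 5 whose groups lay apart and 0.20 for Cldn4 to Cldn3.

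**Figure D4:**
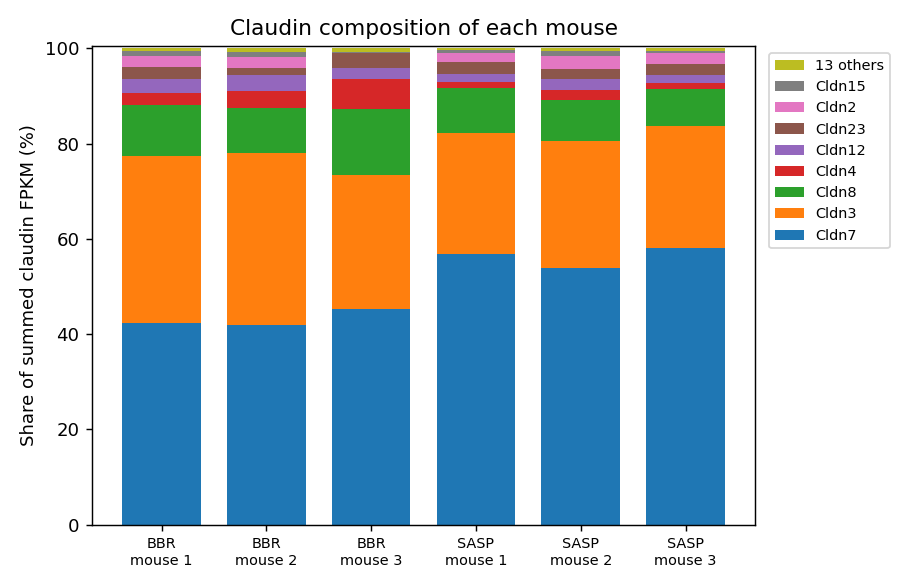
Share of each claudin in the summed FPKM of the 21 listed claudins, in percent, one stacked bar per mouse. Cldn7 takes 42.0% to 45.2% in the BBR mice and 53.9% to 58.0% in the SASP mice, and Cldn2 is reduced to 0.0387% in BBR mouse 3.

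None of the 3 tested occludin family members passed the test with all mice. Ocln, which lines tight junction strands, was at 76.93, 76.68 and 54.10 FPKM in the BBR mice and at 55.13, 42.62 and 47.94 FPKM in the SASP mice. BBR mouse 3 lay just under the highest SASP mouse. For Ocln the log2 fold change was 0.49 (SE 0.17, limma adjusted p = 0.103), and 0.66 (adjusted p = 0.0108) without BBR mouse 3. Relative to Epcam in the same mouse, Ocln stood at 7.37%, 7.80% and 5.74% under BBR and at 5.01%, 5.12% and 4.92% under SASP, with no overlap (exact permutation p = 0.10, two-sided). Marveld3 gave 0.20 with all mice (-0.06 with the epithelial reference) and 0.40 (adjusted p = 0.0190) without BBR mouse 3, and Marveld2 (tricellulin), which seals the corners where cells meet and whose gene lies next to Ocln, gave -0.07 and 0.10.

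The junctional adhesion molecules are immunoglobulin proteins of the tight junction, and Jam2 and Jam3 are also found on vessels. F11r (JAM-A), by far the most abundant of them, was at 168.25, 159.57 and 171.14 FPKM under BBR and at 138.14, 115.67 and 129.97 FPKM under SASP. All BBR mice lay above all SASP mice. On the log2 scale the difference was 0.38 (SE 0.11, limma adjusted p = 0.0669), and 0.36 (adjusted p = 0.0369) without BBR mouse 3. With any other mouse left out, F11r did not pass (limma adjusted p = 0.137 to 0.194). With the epithelial reference its difference was 0.11 (adjusted p = 0.799). Jam2 (0.76 to 3.73 FPKM) and Jam3 (2.25 to 7.54 FPKM) gave log2 fold changes of 0.75 and 0.67, neither past the threshold (adjusted p = 0.109 and 0.144), beside the higher endothelial marker sums given above. BBR mouse 3 had the lowest endothelial sum of the BBR mice (23.96 FPKM), with Jam2 at 3.54 and Jam3 at 7.05 FPKM. Glia and neuron marker sums were 12.74, 29.31 and 43.39 FPKM under BBR and 8.03, 20.48 and 18.07 FPKM under SASP. The part of these cell types was not tested. With the smooth muscle covariate, on which the groups did not overlap, Jam2 and Jam3 came to 0.16 and 0.08. With array weights they came to 0.27 and 0.10.

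The plaque proteins under the tight junction gave fold changes of either sign, and none of 5 passed with all mice. Tjp3 (ZO-3), the most abundant, was at 108.02, 111.49 and 63.71 FPKM in the BBR mice and at 94.32, 86.80 and 88.63 FPKM in the SASP mice. BBR mouse 3 was the lowest of all and the other BBR mice the highest. The log2 fold change was 0.03 (SE 0.21, limma adjusted p = 0.939) with all mice, -0.06 with median-ratio scaling, and 0.29 (adjusted p = 0.0342) without BBR mouse 3. Cgn (cingulin) also had BBR mice 1 and 2 highest and BBR mouse 3 lowest, at 65.11, 68.53 and 43.91 FPKM under BBR and 46.61 to 49.96 FPKM under SASP, with 0.26 for all mice (-0.01 with the epithelial reference) and 0.45 (adjusted p = 0.0093) without BBR mouse 3. The scaffold ZO-1 (Tjp1) gave -0.22, and Cgnl1 (paracingulin) gave -0.52 (adjusted p = 0.107).

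The most abundant adhesion molecules differed little between the drugs. Epcam, an adhesion molecule that stabilises claudins in the intestine, was at 1043.50, 982.83 and 943.25 FPKM in the BBR mice and at 1101.10, 833.19 and 973.43 FPKM in the SASP mice. The SASP mice enclosed the BBR mice on both sides. For Epcam the log2 fold change was 0.04 (SE 0.16, 95% confidence interval -0.33 to 0.41, limma adjusted p = 0.879). Cdh1 (E-cadherin), at 365 to 485 FPKM, gave 0.08 (95% confidence interval -0.28 to 0.44), and the signs of both turned with median-ratio scaling and with the epithelial reference.

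Cdh17 (liver-intestine cadherin), which binds cells together without catenins, had a fold change of the opposite sign. It was at 245.93, 225.73 and 318.22 FPKM in the BBR mice and at 452.04, 337.99 and 370.10 FPKM in the SASP mice. No BBR mouse reached the lowest SASP mouse. For Cdh17 the log2 fold change was -0.56 (SE 0.18, limma adjusted p = 0.0848), and -0.70 (adjusted p = 0.0145) without BBR mouse 3. The ratio of Cdh17 to Cdh1 was 0.611 ± 0.196 under BBR and 0.922 ± 0.0518 under SASP (SD, n = 3 each, exact permutation p = 0.10, two-sided), again with no overlap, and BBR mouse 3 at 0.837 lay close to the lowest SASP mouse at 0.868.

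Of the desmosomal cadherins, 2 were above the filter, Dsg2 and Dsc2, the pair carried by simple epithelia. Dsg2 (desmoglein 2), the more abundant, was at 118.14, 95.95 and 117.35 FPKM in the BBR mice and at 96.85, 104.79 and 95.23 FPKM in the SASP mice. These groups overlapped, and the difference of 0.15 on the log2 scale (SE 0.12, limma adjusted p = 0.392) turned to -0.11 with the epithelial reference. Dsc2 (desmocollin 2), its partner across the gap between cells, was at 37.65, 32.10 and 39.88 FPKM in the BBR mice and at 55.54, 58.88 and 48.99 FPKM in the SASP mice. Every BBR mouse was below every SASP mouse. The log2 fold change was -0.56 (SE 0.12, limma adjusted p = 0.0392), and -0.63 (adjusted p = 0.0113) without BBR mouse 3.

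Dsc2 kept its direction under every alternative run, but its call was lost when any one of the other 5 mice was left out (limma adjusted p = 0.0931 to 0.157), without a filter and with the smooth muscle covariate (adjusted p = 0.223, the highest). With the covariate its log2 fold change was -0.63 (-0.56 without it), and the calls over all genes dropped to 19. The covariate, the mean log2 level of the smooth muscle markers, was 7.16 to 8.30 under BBR and 5.45 to 6.94 under SASP. The groups did not overlap on it, so this fit cannot tell smooth muscle level and drug apart. Dsc2 stood at 0.319, 0.335 and 0.340 of Dsg2 in the BBR mice and at 0.573, 0.562 and 0.514 in the SASP mice. The means were 0.331 ± 0.011 and 0.550 ± 0.0313 (SD, n = 3 each, exact permutation p = 0.10, two-sided, the smallest possible), and BBR mouse 3 did not stand apart on this ratio. Marker sums of leukocytes overlapped, at 16.19 to 27.31 FPKM under BBR and 26.04 to 59.20 FPKM under SASP (6 of 6 markers with a log2 fold change below 0, none past the threshold). Those of endothelium, given above, and of smooth muscle did not overlap, the latter at 2888 to 6808 FPKM under BBR and 757 to 2321 FPKM under SASP (10 of 10 above 0, none past the threshold). The part of these cell types in the Dsc2 result was not tested.

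**Figure D5:**
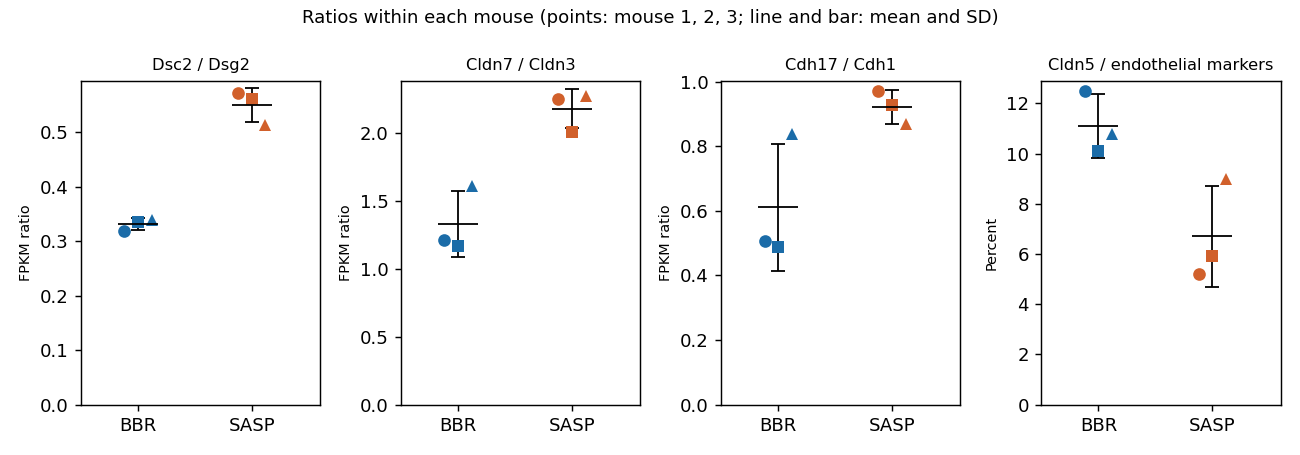
Ratios of 2 junction genes, or of Cldn5 to the summed endothelial markers, within each mouse (blue, BBR; orange, SASP; symbols mark the mouse; line and bar, mean and SD of 3 mice). In all 4 panels the BBR and SASP mice do not overlap, with Dsc2 to Dsg2 at 0.319 to 0.340 under BBR and 0.514 to 0.573 under SASP.

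None of the 6 tested members of the desmosomal plaque passed, with or without BBR mouse 3. Dsp (desmoplakin), which anchors keratin, was at 80.17, 76.32 and 57.37 FPKM under BBR and at 74.07, 69.03 and 60.17 FPKM under SASP, at a log2 difference of 0.06 (limma adjusted p = 0.799) that turned to -0.03 with median-ratio scaling. Jup (plakoglobin), shared by desmosomes and adherens junctions, was at 68.94, 75.17 and 70.51 FPKM under BBR and at 60.09, 66.97 and 59.16 FPKM under SASP. Its groups lay apart by a small margin, and the log2 fold change of 0.20 (SE 0.10, adjusted p = 0.196) turned to -0.06 with the epithelial reference. The other plakophilins, Pkp2, Pkp3 and Pkp4, gave -0.06, -0.10 and -0.20.

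The remaining 16 genes were under the filter. Cldn1 was at 0.58, 0.64 and 0.79 FPKM in the BBR mice and at 0.55, 1.67 and 0.86 FPKM in the SASP mice. Cldn10 lay between 0.17 and 0.56 FPKM, and Cldn17 between 0 and 0.97 FPKM with its highest value in BBR mouse 3. The other 13 did not reach 0.5 FPKM in any mouse (Cldn6, Cldn9, Cldn11, Cldn13, Cldn19, Cldn20, Cldn22, Cldn24, Dsc3, Dsg1a, Dsg1b, Dsg3 and Dsg4). The desmosomal cadherins among them are those of stratified epithelium, and Dsg1a and Dsg1b are near-identical copies whose reads the counting could have split.

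Of the other genes of the junction pathway, 77 were listed and 69 tested. Of these, 4 passed (5.80%), a share no higher than the 8.86% of all 12072 tested genes. Of 7 tricellular and other membrane proteins 1 passed. Cxadr, a tight junction receptor also used by coxsackieviruses, was higher under BBR at 83.10, 83.16 and 75.69 FPKM against 55.41, 50.04 and 49.93 FPKM (log2 fold change 0.63, limma adjusted p = 0.0180). Of 8 desmosome and hemidesmosome partners 2 passed. The tetraspanin Cd151, a partner of laminin-binding integrins, was higher, at 83.90, 90.48 and 82.90 FPKM against 50.90, 60.77 and 54.71 FPKM (0.62, adjusted p = 0.0207). Itga6, the integrin subunit that pairs with the beta-4 subunit in hemidesmosomes, was lower, at 25.21, 23.06 and 30.22 FPKM under BBR and 52.89, 45.14 and 45.02 FPKM under SASP (-0.85, adjusted p = 0.0185). The groups did not overlap for any of these 3 genes, and BBR mouse 3 lay with its group.

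Cdx2, the caudal-type homeobox factor of intestinal identity, was the 1 of 10 transcription regulators that passed, at 22.85, 11.85 and 19.00 FPKM under BBR and 4.69, 9.13 and 3.74 FPKM under SASP (log2 fold change 1.50, limma adjusted p = 0.0422). None of 17 polarity and scaffold genes passed, the nearest being the atypical kinase Prkcz (0.99, adjusted p = 0.0576) at 23.91, 21.06 and 13.09 FPKM under BBR and 7.26, 11.76 and 8.46 FPKM under SASP. None of 15 catenins, nectins and other cadherins passed (nearest Nectin4, -0.45, adjusted p = 0.120), and none of 12 genes of junction signalling and contraction did (nearest Arhgap17, -0.44, adjusted p = 0.0723). At the level of single markers of the epithelium, Krt18 was higher (0.75, adjusted p = 0.0163) and Vil1, the villin of the brush border, was lower (-0.55, adjusted p = 0.0327), while the summed epithelial markers ranged over 10519 to 13977 FPKM under BBR and 11074 to 11617 FPKM under SASP.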

How the data were processed

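The junction genes, their roles and the marker and pathway lists were chosen with earlier results of these data known. Total RNA of the colorectum of 6 mice was sequenced. The authors aligned reads with Bowtie2 2.2.5, estimated gene expression with RSEM 1.2.12 and deposited FPKM values for each gene and mouse, with mm9 given as the build in the submitters' processing notes and the annotation not given in the sources used here. The labels name an Illumina TruSeq kit and the methods of the study name rRNA depletion and another platform, so the library type of these samples is uncertain. Either could move the level of a gene in FPKM, and this was not tested.

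FPKM was used as deposited. Since these are not counts, no count model was run. Genes with at least 1 FPKM in at least 3 of 6 mice (12072) were tested on log2(FPKM + 1) with limma 3.58.1 in R 4.3.3 (two-sided moderated test with a mean-variance trend, Benjamini-Hochberg over all tested genes, threshold 0.05). Fold changes on this scale understate those of low genes. Depth was estimated from short genes (transcripts under 1500 bases) that were above 0 in only 1 library, 31 to 56 genes per library. Each value was taken as 1 read, which was not checked, and the median was used. The estimate carries no count. Groups came from the treatment label. Full statistics were given for genes past the threshold and for the most abundant gene of each role. Genes singled out beyond that rule (Cldn4, Cldn12, Cldn15, Cdh17, Jup, Cgn and Pkp1) and the ratios were chosen after their values were seen. One tested junction gene is counted but not reported here by name. For each other list, genes past the threshold or, failing that, the gene with the smallest p were named. Ratios within a mouse were compared by exact permutation. Promoter windows came from RefSeq on GRCm38.p6, and no coordinate was carried to or from mm9.

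Alternatives were other pseudocounts (0.1 and 0.01), no filter and a mean of at least 5 FPKM, quantile, median-ratio and epithelial-marker scaling, no variance trend, array quality weights, a smooth muscle covariate, the unadjusted p and leaving out each mouse.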

Additional observations from a re-analysis of the deposited data

How the results depend on the processing

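Of 539 values of single junction genes under 17 alternatives, 446 kept direction and side of the threshold, 42 came to pass it, 15 no longer did and 36 turned direction. The count of junction genes higher under BBR (1) was 0 with no filter, a mean of at least 5 FPKM, the epithelial reference or the smooth muscle covariate, 2 with median-ratio scaling, 3 with quantile normalization, 14 with array weights, 7 at the unadjusted p and 0 to 9 with a mouse left out. The count lower (1) was 0 with no filter or the covariate, 2 with the epithelial reference, 7 with array weights, 5 unadjusted and 0 to 3 with a mouse left out. Over all genes (1069), the counts were 591 with no filter, 1737 quantile, 1713 median-ratio, 7126 with array weights (4636 higher and 2490 lower), 19 with the covariate, 3837 unadjusted and 51 to 4018 with a mouse left out (4018 without BBR mouse 3). For the 69 other junction genes (4) they were 2 with the epithelial reference, 35 with array weights, 0 with the covariate, 19 unadjusted and 0 to 21 with a mouse left out. The array weights were 5.32 for BBR mouse 1, 4.85 for SASP mouse 3 and 0.129 to 0.746 for the other mice. That fit thus leaned mostly on 1 mouse of each group, and its counts are not on a par with the others. The cause of these shifts was not tested, beyond the fewer genes or mice that a filter or a left-out mouse leaves.

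The median log2 fold change of the junction genes (0.03) was -0.058 with median-ratio scaling, -0.23 with the epithelial reference (over all genes -0.17, from 0.10), 0.14 with array weights, 0.25 with the covariate and -0.015 to 0.17 with a mouse left out. The epithelial reference was moved most by 1 of its markers, Car1 (log2 fold change 2.48). Direction turned with median-ratio scaling for Epcam (-0.052), Cdh1 (-0.013), Dsp (-0.027) and Tjp3 (-0.063). With the epithelial reference it turned for Epcam (-0.23), Cdh1 (-0.19), Dsg2 (-0.11), Dsp (-0.20), Jup (-0.064), Marveld3 (-0.063), Tjp3 (-0.24) and Cgn (-0.011). With array weights it turned for Pkp3 (0.024), Pkp1 (0.093), Marveld2 (0.088) and Cldn15 (0.58), and with the covariate for Pkp1 (0.36), Marveld2 (0.24), Cldn2 (0.26) and Cldn15 (0.65). With a mouse left out, the range crossed 0 for Epcam (-0.066 to 0.14), Cdh1 (-0.019 to 0.18), Dsp (-0.028 to 0.21), Pkp2 (-0.15 to 0.024), Pkp1 (-0.77 to 0.24), Marveld2 (-0.17 to 0.10), Cldn23 (-0.30 to 0.24), Cldn15 (-0.64 to 0.47), Cldn14 (-0.20 to 0.029) and Tjp3 (-0.11 to 0.29). None of these genes passed the test with all mice. No paired analysis was possible because the labels give the groups no shared replicate numbers. Depth is only estimated, so no counting interval is given, and genes under 1 FPKM were not compared.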
